A study of Mus musculus with 32 samples.

Results

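The proteasome genes were followed in liver and spleen of cloned mice. They were chosen by symbol, as every array row named for a mouse gene that begins with Psma to Psmg and a number, without regard to how the gene behaved. Of the 9026 named genes, 42 met the rule, on 51 probes. They comprised 6 genes of the core's alpha ring, 7 of its constitutive beta ring and 1 thymus beta subunit. They also held 5 immune subunits, 5 ATPases and 8 non-ATPases of the cap, 5 assembly chaperones and 3 other activators or inhibitors. The remaining 2, Psmc3ip and Psme3ip1, encode no subunit and were kept because the rule takes them. Psma3, Psma8, Psmc1, Psmd1, Psmd3, Psmd8, Psmg3 and Psmg4 were not analysed here.

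The study compared mice made by nuclear transfer with conventionally bred mice on 32 two-channel arrays. The first group was Dll1 clones, cloned mice of a line altered in Dll1, the gene of a Notch ligand. The second was wildtype clones. All were male 129/SvJ mice aged 18 to 19 weeks, with 4 mice per genotype and liver and spleen taken from each. Every RNA was hybridised against pooled RNA of conventionally bred males of the same strain and age and, as the array titles read, the same organ. These were Dll1 heterozygotes for the Dll1 clones and wildtypes for the wildtype clones. The labelling protocol speaks of 6 animals per pool, whereas 4 mouse identifiers are listed. The labels do not give the Dll1 allele, its zygosity in the clones or how many donor cells the clones came from, so mice of a genotype may share a donor.

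The proteasome is the chamber in which cells cut up proteins tagged with ubiquitin. Rings of alpha subunits gate a core of beta subunits, of which Psmb5, Psmb6 and Psmb7 carry the cutting sites, while the cap (Psmc ATPases and Psmd subunits) recognises, unfolds and feeds in the tagged protein. In cells exposed to interferon-gamma, and constitutively in many lymphoid cells such as those of spleen, Psmb8, Psmb9 and Psmb10 replace Psmb5, Psmb6 and Psmb7, and the activator formed by Psme1 and Psme2 joins the core. This immunoproteasome is known for producing peptides that MHC class I molecules present.

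Each value below is a log2 ratio of cloned mouse over pool, averaged over the 2 dye-swapped arrays of a mouse, and a positive value means higher in the clone on the direction the array titles make likely. The values are ratios, so they give neither the level of a gene in an organ nor an order of levels between genes, and the markers of liver and spleen could not be checked for presence. The test was limma's moderated test across all features of an organ, with the Benjamini-Hochberg adjustment over all of them. A pool is 1 sample, so a test against it leaves out the spread of the conventionally bred mice. The numbering of mice links the liver and spleen of 1 animal.

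The median ratio of the proteasome genes lay close to 0 in every group. Single genes lay further off in spleen, such as Psmd10 with a mean of 0.66 and Psmd2 with -0.56 in Dll1 clones. No proteasome gene passed the adjusted threshold of 0.05 in any comparison, with each organ fitted by itself and both dye orientations read as deposited. With the arrays that carried the clone in Cy3 turned in sign, up to 18 passed, as given further on. In livers the test covered 41 of the 42 genes and in spleens 38, since Psmb10 had both arrays measured in too few mice in either organ and Psmd6, Psmd12 and Psmd14 in too few spleens. The median log2 ratio over the tested genes was -0.002 in Dll1 clone livers and -0.019 in wildtype clone livers, beside -0.004 and 0.008 over all features. For spleens it was 0.022 in Dll1 clones and -0.005 in wildtype clones, beside 0.007 and 0.012 over all features.

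In Dll1 clone livers, limma called 0 of 41 at the adjusted threshold (0% of all 16900 features) and 6 at an unadjusted p under 0.05, which is 14.6% of them beside 9.37% of all features. For wildtype clone livers the counts were 0 (0.0828% of all features, 14 of them) and 3, or 7.32% beside 8.97%. In Dll1 clone spleens they were 0 of 38 (0% of all 15632 features) and 5, or 13.2% beside 10.4%. In wildtype clone spleens they were 0 (0%) and 1, or 2.63% beside 3.64%. These shares lie near those of all features in each group. When limma fitted all 4 groups together, which pools the smaller spread of liver with that of spleen, 3 genes passed in Dll1 clone spleens, Psmb7, Psmd10 and Psmd2, beside 7.37% of all features, with adjusted p between 0.0196 and 0.0499. With both genotypes averaged, 0 of 41 passed the adjusted threshold in liver (0.172% of features) and 5 the unadjusted one (13.2%), and in spleen 0 of 38 (0%) and 2 (8.18%).

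**Figure D1:**
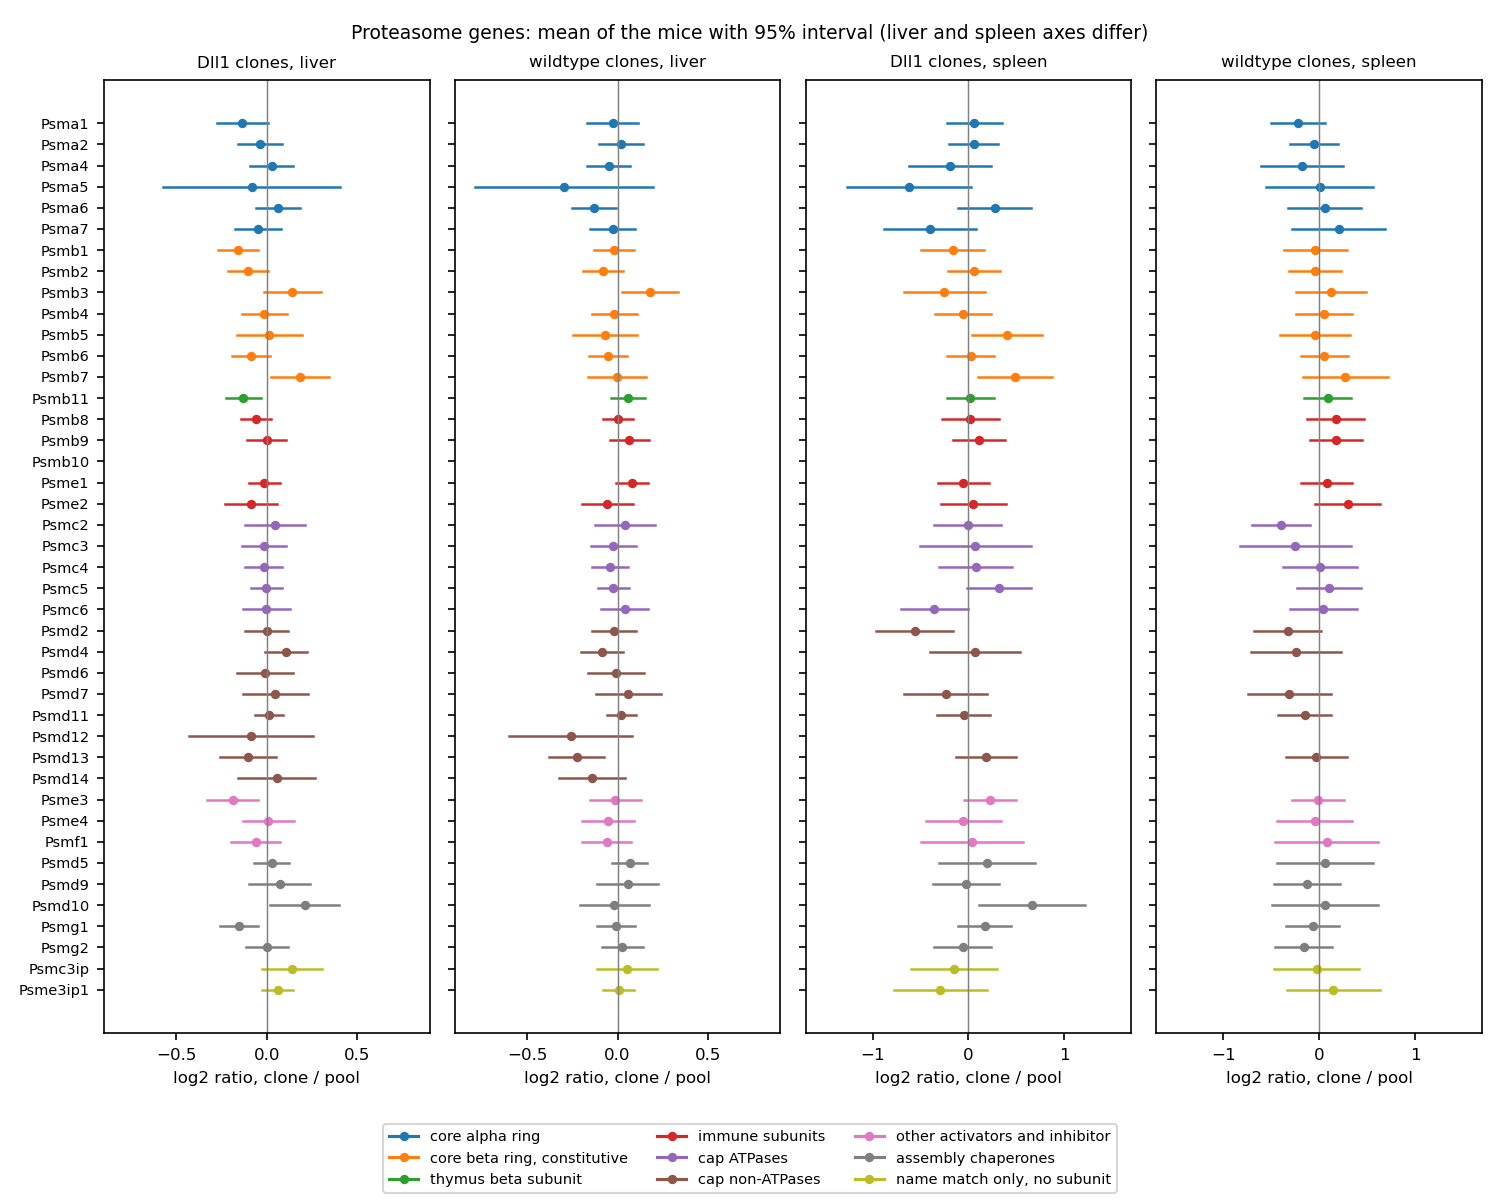
Mean log2 ratio of clone over pool for every tested proteasome gene (point) with its 95% interval from limma (line), by role, with Dll1 clones left of wildtype clones within each organ. Liver axes span a narrower range than spleen axes, and a gene without a point in a panel was measured in too few mice.

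The precision differed by organ. The median SD between mice of the proteasome genes was 0.113 in Dll1 clone livers and 0.0893 in wildtype clone livers, and 0.339 in Dll1 clone spleens and 0.191 in wildtype clone spleens. The 95% interval lay wholly within ±0.5 for 40 of the 41 genes in Dll1 clone livers and 39 in wildtype clone livers. In spleen this held for 20 of 38 genes in Dll1 clones and 23 in wildtype clones, and within ±1 for 36 and 38. A change of 0.5 in log2 units would thus lie outside the interval for nearly all genes in liver, but not for many in spleen. This holds only with both dye orientations read as deposited. With the Cy3 arrays turned in sign, the mean of Psmc4 was -0.60 in wildtype clone livers and that of Psmc2 -0.495 in Dll1 clone livers.

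Psmb8, Psmb9 and Psme2 are shown with the sequence before their start sites, because they were above 0 in all 4 wildtype clone spleens on the direction read here, and Psmb5 is shown beside them. Psmb8 and Psmb9 lie on chromosome 17 and Psme1 and Psme2 on chromosome 14. The stretches below are the 250 bases upstream of the RefSeq start, 5′ to 3′ on the gene's strand, on GRCm38.p6. They run over chr17:34197945-34198194 on the plus strand for Psmb8, chr17:34187331-34187580 on the minus strand for Psmb9 and chr14:55591102-55591351 on the minus strand for Psme2. For Psmb5, the constitutive partner of Psmb8, the stretch is chr14:54617996-54618245 on the minus strand. Capitals mark a CCAAT box read on the other strand in Psmb9 and the core of an antioxidant response element (TGACNNNGC) in Psmb5.
Psmb8: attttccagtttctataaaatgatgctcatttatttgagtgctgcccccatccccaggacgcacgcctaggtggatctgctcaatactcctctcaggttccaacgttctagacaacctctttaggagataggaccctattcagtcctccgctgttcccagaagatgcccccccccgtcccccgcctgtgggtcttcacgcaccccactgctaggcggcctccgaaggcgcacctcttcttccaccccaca
Psmb9: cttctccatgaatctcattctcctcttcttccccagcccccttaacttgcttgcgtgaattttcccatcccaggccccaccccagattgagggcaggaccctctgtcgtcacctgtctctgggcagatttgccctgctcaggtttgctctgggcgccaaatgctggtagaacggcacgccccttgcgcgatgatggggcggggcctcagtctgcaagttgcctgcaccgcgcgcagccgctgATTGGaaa
Psme2: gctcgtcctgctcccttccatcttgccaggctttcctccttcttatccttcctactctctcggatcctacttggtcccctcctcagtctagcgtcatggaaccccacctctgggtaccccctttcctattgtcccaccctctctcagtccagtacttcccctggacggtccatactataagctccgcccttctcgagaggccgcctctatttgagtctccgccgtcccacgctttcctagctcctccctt
Psmb5: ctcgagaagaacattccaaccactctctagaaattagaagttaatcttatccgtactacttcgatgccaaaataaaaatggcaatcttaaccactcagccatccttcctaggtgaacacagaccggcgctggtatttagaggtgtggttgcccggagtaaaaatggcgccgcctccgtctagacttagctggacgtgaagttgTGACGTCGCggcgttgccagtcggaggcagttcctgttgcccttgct

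The match in Psmb9 began 8 bases before the start and that in Psmb5 47 bases before. Both strands of 300-base windows, 250 before the start and 50 after, were searched for 3 motifs, of which none overlaps another in these stretches, and 36 of the 42 genes had a window. The interferon response core (GAAA, any 2 bases, GAAA) was in 4 of these 36 genes (11.1%) and in 3.44% of the 32851 windows of all genes, the 4 including Psme1, where it lay 10 bases after the start. TGACNNNGC was in 6 (16.7%) beside 12.4%, including Psmb5 and Psmb6, and CCAAT in 14 (38.9%) beside 37.4%. A gene counted if any of its windows held the motif, while the share beside it is of single windows. Genes with several windows thus had more chances. Psmb8 and Psme2 held none of the 3 in this window.

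In livers the tested immune subunits lay within a narrow band. Psmb8, the subunit that takes the place of Psmb5, had ratios of -0.03, -0.11, -0.01 and -0.08 in the 4 Dll1 clones, against -0.06, 0.05, 0.01 and 0.01 in the 4 wildtype clones. All Dll1 clones were slightly below their pool and the ranges of the genotypes overlapped. The mean was -0.06 ± 0.04 in Dll1 clones and 0.003 ± 0.047 in wildtype clones (SD, n = 4 each), with limma's adjusted p of 0.616 and 0.993.

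Psmb9, which replaces Psmb6, had -0.07, 0.03, -0.11 and 0.14 in Dll1 clone livers, against 0.02, 0.12, 0.12 and 0.003 in wildtype clone livers. Psme1, a subunit of the interferon-inducible activator, had -0.01, -0.04, 0.04 and -0.05 in Dll1 clone livers, against 0.002, 0.11, 0.05 and 0.16 in wildtype clone livers. The wildtype clones were all at or above 0 for both genes, and the Dll1 clones fell on either side. limma's adjusted p in wildtype clone livers was 0.751 for Psmb9 and 0.595 for Psme1. With the arrays that carried the clone in Cy3 turned in sign, the alternative reading described further on, both wildtype means were negative, at -0.20 and -0.20, with adjusted p of 0.00618 and 0.0126.

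Psme2, the partner of Psme1 in that activator, had -0.15, -0.16, 0.16 and -0.20 in Dll1 clone livers, against -0.06, -0.21, 0.02 and 0.03 in wildtype clone livers. The third Dll1 clone stood apart from the other three Dll1 clones and the genotypes overlapped. Psmb10, which replaces Psmb7, had both arrays in 1 liver of each genotype, with -0.19 in the first Dll1 clone and -1.08 in the second wildtype clone, and gives no comparison.

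Over the tested immune subunits the median was -0.035 in Dll1 clone livers and 0.034 in wildtype clone livers. With the Cy3 arrays turned they were 0.058 in Dll1 clones and -0.105 in wildtype clones.

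Spleen ratios of the immune subunits spread further. Psmb8 had -0.07, 0.31, -0.32 and 0.16 in the 4 Dll1 clone spleens, against 0.23, 0.17, 0.03 and 0.25 in the 4 wildtype clone spleens. Psmb9 had 0.28, 0.18, -0.22 and 0.22 in Dll1 clone spleens, against 0.28, 0.16, 0.09 and 0.17 in wildtype clone spleens. For both genes every wildtype clone was above its pool, while the third Dll1 clone was below its pool and lowest of its group. The median over all proteasome genes in that spleen was also the lowest of its group, at -0.203. Its array with the clone in Cy5 lacked 2859 values, the most of any array.

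Psme2 had 0.44, 0.16, -0.35 and -0.04 in Dll1 clone spleens, against 0.48, 0.02, 0.32 and 0.37 in wildtype clone spleens. Psme1 had 0.11, -0.14, -0.24 and 0.06 in Dll1 clone spleens, against 0.02, 0.004, -0.01 and 0.29 in wildtype clone spleens. The genotypes overlapped for each of these genes, and the third Dll1 clone was again the lowest of its group for both. Psmb10 had -0.16 in the fourth Dll1 clone spleen and a value from both arrays in no wildtype clone spleen.

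The means in Dll1 clone spleens were 0.02 ± 0.28 for Psmb8, 0.11 ± 0.22 for Psmb9, 0.05 ± 0.33 for Psme2 and -0.05 ± 0.16 for Psme1 (SD, n = 4). Those in wildtype clone spleens were 0.17 ± 0.10 for Psmb8, 0.17 ± 0.08 for Psmb9, 0.30 ± 0.20 for Psme2 and 0.08 ± 0.14 for Psme1 (SD, n = 4). None passed the test: Psme2 in wildtype clone spleens had the smallest unadjusted p of these, 0.0798, with limma's adjusted p of 1. Its 95% interval ran from -0.04 to 0.64.

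In Dll1 clone spleens 0 of the 4 tested immune subunits were above 0 in all mice, beside 8.81% of features. For wildtype clone spleens the count was 3 of 4 (75%), beside 9.29% of all features with 4 values, and with the Cy3 arrays turned it was 1 of 4 (25%), beside 25% of all features. The median over the immune subunits was 0.036 in Dll1 clone spleens and 0.171 in wildtype clone spleens, and on the reading with the Cy3 arrays turned the wildtype median was -0.003. Leaving out 1 mouse at a time, the median ranged over -0.013 to 0.16 in Dll1 clones, and over 0.145 to 0.209 in wildtype clones.

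**Figure D2:**
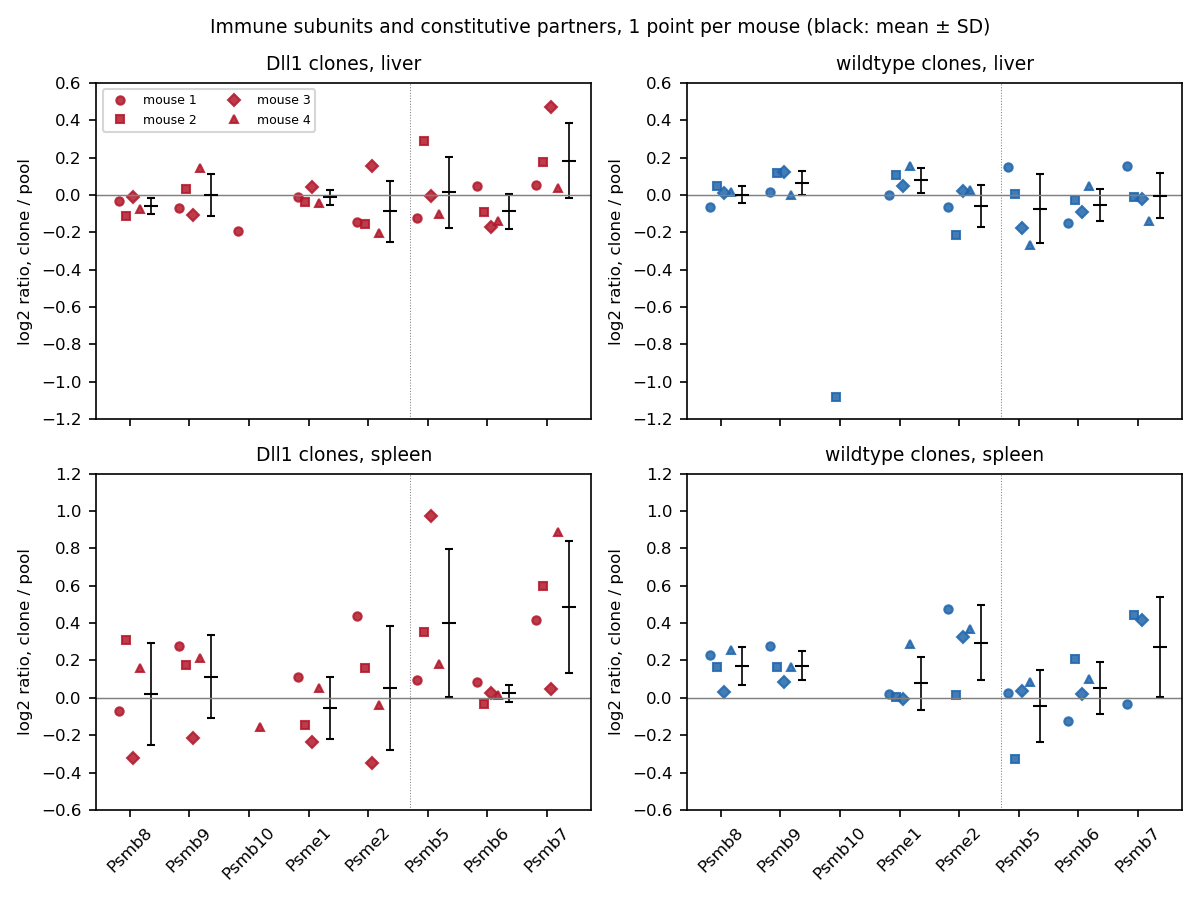
Log2 ratio of clone over pool for the 5 immune subunits (left of the dotted line) and the constitutive partners Psmb5, Psmb6 and Psmb7 (right of it), 1 symbol per mouse, with mean ± SD in black where at least 3 mice were measured. Dll1 clones are left of wildtype clones, and the points of Psmb8, Psmb9 and Psme2 in wildtype clone spleens all lie above 0.

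The constitutive partners were measured on the same arrays. Psmb5, the chymotrypsin-like subunit that Psmb8 replaces, had 0.09, 0.35, 0.97 and 0.18 in Dll1 clone spleens, against 0.03, -0.33, 0.04 and 0.09 in wildtype clone spleens. All Dll1 clones were above their pool, the third highest by far, and every one exceeded the highest wildtype clone. The Dll1 mean was 0.40 ± 0.40 (SD, n = 4), with an unadjusted p of 0.0357 and limma's adjusted p of 0.456. With the clone in Cy5 the Dll1 mean was -0.09 and with the clone in Cy3 it was 0.89, so the orientations gave different signs.

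Psmb7, the trypsin-like subunit that Psmb10 replaces, had 0.41, 0.60, 0.05 and 0.89 in Dll1 clone spleens, against -0.04, 0.44 and 0.42 in the 3 wildtype clone spleens measured. Here all Dll1 clones lay above their pool and the genotypes overlapped. The Dll1 mean was 0.49 ± 0.35 (SD, n = 4) with limma's adjusted p of 0.453, and both orientations had positive means, 0.65 with the clone in Cy5 and 0.32 in Cy3. In Dll1 clone livers Psmb7 had 0.05, 0.18, 0.47 and 0.04, against 0.16, -0.01, -0.02 and -0.14 in wildtype clone livers, with limma's adjusted p of 0.505 and 0.995.

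Psmb6, the caspase-like subunit that Psmb9 replaces, had means near 0 in every group. These were -0.09 ± 0.10 in Dll1 clone livers and -0.05 ± 0.08 in wildtype clone livers, and 0.02 ± 0.05 in Dll1 clone spleens and 0.05 ± 0.14 in wildtype clone spleens (SD, n = 4 each). The spleen means join opposite orientations. They were 0.23 with the clone in Cy5 and -0.14 in Cy3 in Dll1 clones, and 0.28 and -0.17 in wildtype clones. Psmb5 in livers averaged 0.02 ± 0.19 in Dll1 clones and -0.07 ± 0.19 in wildtype clones, with the mice on both sides of 0 in each genotype.

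Among the other core genes, 2 structural beta subunits and 1 alpha subunit had an unadjusted p under 0.05 in liver. Psmb1 had -0.28, -0.08, -0.22 and -0.06 in Dll1 clone livers, against 0.01, 0.08, -0.13 and -0.05 in wildtype clone livers. Psmb3 had 0.20, -0.001, 0.32 and 0.05 in Dll1 clone livers, against 0.12, 0.13, 0.03 and 0.43 in wildtype clone livers. Psma6 had 0.17, 0.03, -0.11 and 0.17 in Dll1 clone livers, against -0.15, -0.10, -0.24 and -0.04 in wildtype clone livers. Psmb1 was below its pool in every Dll1 clone, Psmb3 above it in every wildtype clone and Psma6 below it in every wildtype clone. limma's adjusted p was 0.474 for Psmb1 in Dll1 clones, and 0.498 for Psmb3 and 0.522 for Psma6 in wildtype clones.

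The thymus beta subunit Psmb11 had -0.10, -0.07, -0.15 and -0.19 in Dll1 clone livers, against -0.06, 0.04, 0.11 and 0.13 in wildtype clone livers, so the genotypes did not overlap. This gene is known from cortical thymus epithelium, and whether its probe gave signal above background in liver was not tested. Over the alpha ring the median was -0.043 in Dll1 clone livers, -0.039 in wildtype clone livers, -0.070 in Dll1 clone spleens and -0.026 in wildtype clone spleens. For the constitutive beta ring it was -0.014, -0.021, 0.024 and 0.049 in the same order.

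The cap ATPases drive the unfolding of substrates. In livers their means lay between -0.017 and 0.045 in Dll1 clones and between -0.041 and 0.040 in wildtype clones, 5 genes each. Some of these means join opposite orientations. Psmc4 in wildtype clone livers was -0.64 with the clone in Cy5 and 0.56 in Cy3, Psmc6 -0.45 and 0.53. With the Cy3 arrays turned they were -0.60 and -0.49, with limma's adjusted p of 2.43e-05 and 4.58e-05, beside 55% of all features called. Psmc3 and Psmc5 were then 0.21 and 0.23 there. Psmc2 in Dll1 clone livers was -0.45 in Cy5 and 0.54 in Cy3. Psmc2 had -0.03, 0.03 and -0.03 in the 3 Dll1 clone spleens measured, against -0.09, -0.30, -0.63 and -0.59 in the 4 wildtype clone spleens. The wildtype clones were all lower than the Dll1 clones, with a wildtype mean of -0.40 ± 0.26 (SD, n = 4), an unadjusted p of 0.0162 and limma's adjusted p of 1. The mean of -0.40 joins opposite orientations, -1.43 with the clone in Cy5 and 0.63 in Cy3, each of the same sign in all 4 mice. The Dll1 values near 0 do so too, with means of -0.835 in Cy5 (3 mice) and 0.85 in Cy3 (4 mice). With the Cy3 arrays turned, the means of Psmc2 in spleen were -0.83 in Dll1 clones and -1.03 in wildtype clones.

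Psmc6 had -0.84, -0.20, -0.45 and 0.07 in Dll1 clone spleens, against -0.12, 0.02, 0.17 and 0.11 in wildtype clone spleens. The lowest 3 Dll1 clones lay below all wildtype clones, and the fourth lay among them. The Dll1 mean was -0.36 ± 0.39 (SD, n = 4) with limma's adjusted p of 0.478. The 3 probes of Psmc5 disagreed in Dll1 clone spleens, with means of -0.21, 0.24 and 0.93, so its mean there rests on which probe is read.

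The cap's non-ATPases hold the scaffold and the ubiquitin receptors. Psmd2, the large scaffold subunit, had -0.70, -0.83 and -0.15 in the 3 Dll1 clone spleens measured, against -0.14, -0.58, -0.39 and -0.20 in wildtype clone spleens. Every measured mouse of both genotypes was below its pool. The Dll1 mean was -0.56 ± 0.36 (SD, n = 3) with limma's adjusted p of 0.43, and the mean over both genotypes was -0.45 with an unadjusted p of 0.005 and an adjusted p of 0.454. In livers Psmd2 averaged 0.00 ± 0.11 in Dll1 clones and -0.02 ± 0.11 in wildtype clones (SD, n = 4 each).

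Of the 5 non-ATPases tested in spleen, 2 had a mean above and 3 below 0 in Dll1 clones, with a median of -0.051. All 5 had a negative mean in wildtype clone spleens, with a median of -0.242, and 3 of them (60%), Psmd2, Psmd4 and Psmd7, were below 0 in all mice beside 7.02% of all features. With the Cy3 arrays turned, 2 had positive means there, Psmd11 (0.15) and Psmd13 (0.11), and 2 of the 5 (40%) were below 0 in all mice beside 16.3% of all features. None of the 5 reached an unadjusted p under 0.05 in wildtype clone spleens. Psmd7 had 0.06, -0.38, -0.75 and 0.12 in Dll1 clone spleens, against -0.32, -0.02, -0.05 and -0.86 in wildtype clone spleens, with single mice of each genotype well below the others.

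In livers Psmd13, a lid subunit of the cap, had -0.40, -0.07, 0.05 and 0.001 in Dll1 clones, against -0.17, -0.25, -0.34 and -0.14 in wildtype clones. All wildtype clones were below their pool and overlapped the Dll1 clones. The wildtype mean was -0.23 ± 0.09 (SD, n = 4) with an unadjusted p of 0.00823 and limma's adjusted p of 0.406. On the reading with Cy3 arrays turned it was 0.14 with an adjusted p of 0.0427.

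Of the assembly chaperones, which help build the core and the cap, Psmd10 (gankyrin) had 0.84, 1.57, -0.24 and 0.48 in Dll1 clone spleens, against 0.04, 0.18, 0.21 and -0.17 in wildtype clone spleens. In livers it had 0.12, 0.62, 0.06 and 0.03 in Dll1 clones, against -0.07, -0.05, -0.02 and 0.07 in wildtype clones. The second Dll1 clone was the highest in both organs, and the third lay below its pool in spleen. The Dll1 mean was 0.66 in spleen, and 0.36 without the second mouse. In liver it was 0.21, and 0.07 without that mouse. It was 0.12 in spleen and 0.22 in liver with the Cy3 arrays turned. limma's adjusted p in Dll1 clones was 0.453 in spleen and 0.519 in liver.

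Psmg1, which pairs alpha subunits during core assembly, had -0.13, -0.15, -0.17 and -0.16 in Dll1 clone livers, against 0.05, 0.13, -0.16 and -0.04 in wildtype clone livers. The Dll1 clones agreed closely, and 1 wildtype clone fell among them. The unadjusted p was 0.00901 in Dll1 clone livers, with limma's adjusted p of 0.469, and the mean became -0.03 with the Cy3 arrays turned. In spleens Psmg1 had 0.40, 0.01, 0.26 and 0.01 in Dll1 clones, against 0.05, 0.04, -0.29 and -0.08 in wildtype clones.

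Psme3, the nuclear activator that needs no interferon, had -0.23, -0.17, -0.11 and -0.24 in Dll1 clone livers, against 0.27, -0.13, -0.08 and -0.11 in wildtype clone livers. Its spleen values were 0.28, 0.17, 0.31 and 0.14 in Dll1 clones, against -0.20, 0.20, -0.21 and 0.16 in wildtype clones. Every Dll1 clone was below its pool in liver and above it in spleen. limma's adjusted p in Dll1 clone livers was 0.488, and in Dll1 clone spleens 0.532. The Dll1 spleen mean of Psme3 was -0.02 with the clone in Cy5 and 0.47 in Cy3. With the Cy3 arrays turned, its Dll1 means were 0.02 in liver and -0.24 in spleen. The other activator Psme4 and the inhibitor Psmf1 had means between -0.062 and 0.076 in all groups. In Dll1 clone spleens the mice of Psmf1 spread over -0.71, 0.99, -0.08 and -0.03. Its mean there was 0.82 with the clone in Cy5 and -0.735 in Cy3, and that of Psme4 0.48 and -0.585. With the Cy3 arrays turned, these spleen means were 0.78 for Psmf1 and 0.53 for Psme4. Psmf1 in wildtype clone livers was then 0.26, with limma's adjusted p of 0.00177 beside 55% of all features called.

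Signs were counted over all mice of a group. In Dll1 clone livers 2 genes were above 0 in every mouse (5% of the 40 with 4 values, beside 5.83% of features) and 8 below (20%, beside 9.91%). In wildtype clone livers 4 were above (9.76%, beside 11.7%) and 4 below (9.76%, beside 8.98%). In Dll1 clone spleens 4 were above (11.8%, beside 8.81%) and 0 below (0%, beside 7.65%), and in wildtype clone spleens 5 above (13.5%, beside 9.29%) and 7 below (18.9%, beside 7.02%). The 8 in Dll1 clone livers were Psma1, Psma5, Psmb1, Psmb2, Psmb8, Psmb11, Psme3 and Psmg1, from 6 of the role groups. The 7 in wildtype clone spleens were Psma1, Psma4, Psmc2, Psmd2, Psmd4, Psmd7 and Psmg2. With the Cy3 arrays turned, 10 of 40 (25%, beside 13.3%) were below 0 in every Dll1 clone liver. None of the 8 named for Dll1 clone livers was among them. Psma5, Psmb1, Psmb2, Psmb8, Psmb11 and Psme3 then had positive means there, from 0.02 to 0.21. Psma1 (-0.003) and Psmg1 (-0.03) had mice on both sides of 0. On that reading 8 of 37 (21.6%, beside 16.3%) were below 0 in every wildtype clone spleen and 6 of 34 (17.6%, beside 15.7%) in every Dll1 clone spleen.

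The difference between genotypes asks whether cloning was accompanied by another ratio in Dll1 mice than in wildtype mice. It sets 2 ratios against different pools, so a difference between the pools enters it and cannot be told apart from one between the clones. In liver limma called 0 of 41 proteasome genes at the adjusted threshold (0% of features) and 3 at an unadjusted p under 0.05, or 7.32% beside 4.87% of features. In spleen it called 0 of 38 (0%) and 0 (4.67% of features).

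The 3 liver genes were Psmb11, Psmd4 and Psma6. Psmd4, a ubiquitin receptor of the cap, had 0.04, -0.002, 0.30 and 0.09 in Dll1 clone livers, against -0.10, -0.17, -0.04 and -0.05 in wildtype clone livers, with no overlap. The difference of Dll1 minus wildtype clones was 0.20 ± 0.07 (SE) for Psmd4, 0.19 ± 0.08 (SE) for Psma6 and -0.19 ± 0.06 (SE) for Psmb11. limma's adjusted p was 0.934 for each of them. On the reading with Cy3 arrays turned, the sign of Psmd4 and Psma6 was opposite, at -0.24 and -0.03, and the difference for Psmb11 was -0.02.

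For the immune subunits all 4 differences of Dll1 minus wildtype clones were negative in both organs, with medians of -0.062 in liver and -0.140 in spleen. None reached an unadjusted p under 0.05. With the Cy3 arrays turned the median was 0.122 in liver, where 3 of the 4 were positive, Psmb8 at 0.03, Psmb9 at 0.34 with limma's adjusted p of 0.00481 beside 41.6% of all features called, and Psme1 at 0.21. In spleen the turned median was -0.188, with Psmb8 at 0.03. On the direction read here Psme2 differed by -0.24 in spleen, with a 95% interval of -0.72 to 0.24 and limma's adjusted p of 0.878. Psmb8 differed by -0.15 (interval -0.57 to 0.27) and Psmb9 by -0.06 (interval -0.45 to 0.33), so differences within these bounds were not excluded. In liver the intervals were tighter, -0.18 to 0.06 for Psmb8, -0.22 to 0.09 for Psmb9, -0.22 to 0.03 for Psme1 and -0.23 to 0.17 for Psme2. For Psmb5, Psmb6 and Psmb7 the spleen differences were 0.44, -0.03 and 0.21, with limma's adjusted p of 0.871, 0.983 and 0.908.

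The same mice gave both organs, so liver minus spleen was tested within mice. limma called 0 of 38 proteasome genes in Dll1 clones (0% of features) and 4 at an unadjusted p under 0.05, or 10.5% beside 11.3% of features. In wildtype clones it called 0 (0%) and 1, or 2.63% beside 4.69%. The Dll1 genes were Psmd2 at 0.58, Psme3 at -0.41, Psmg1 at -0.32 and Psmd10 at -0.45, with adjusted p between 0.407 and 0.438. The wildtype gene was Psmc2 at 0.44, with an adjusted p of 0.981. These 5 were chosen after their values were seen, to give the counts their names.

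Genes that work with the proteasome were read from 2 further lists. Of 20 partners, such as shuttle receptors and Nfe2l1, the transcription factor that raises subunit genes when the proteasome is impaired, 8 could be tested in each group and 0 passed the adjusted threshold. 2 of the 8 (25%, beside 10.4% of all features) had an unadjusted p under 0.05 in Dll1 clone spleens, and in the other groups 0. Nfe2l1 had 0.77, 0.35, -0.12 and 0.42 in Dll1 clone spleens, with a mean of 0.36 and limma's adjusted p of 0.461. Ecpas, which holds core and cap together, had -0.90, -0.64, -0.27 and 0.02 in Dll1 clone spleens, against 0.17, 0.40, 0.31 and 0.01 in wildtype clone spleens. Every wildtype clone was above its pool for Ecpas and 3 of 4 Dll1 clones were below theirs, and limma's adjusted p was 0.453 in Dll1 clones and 1 in wildtype clones. The partners with the smallest p in the other groups were Ubqln1 (0.11) and Sem1 (-0.09) in Dll1 clone livers, Vcp (0.04) and Sem1 (-0.11) in wildtype clone livers, and Ubqln1 (-0.23) in wildtype clone spleens.

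The antigen processing and interferon list held 45 genes, of which 23 were tested in liver and 20 in spleen, and 0 passed the adjusted threshold in any of the 4 groups. At an unadjusted p under 0.05, 0 were higher and 4 lower in Dll1 clone livers, 1 higher and 4 lower in wildtype clone livers, 2 higher and 2 lower in Dll1 clone spleens and 2 higher and 0 lower in wildtype clone spleens. These were 17.4%, 21.7%, 20% and 10% of the list in the same order, beside 9.37%, 8.97%, 10.4% and 3.64% of all features. Its medians were -0.037, -0.024, 0.074 and 0.004 in these groups. Ifi30, a lysosomal thiol reductase of antigen processing, had 0.58, 0.38, 0.42 and 0.40 in Dll1 clone spleens, against 0.62, 0.54, 0.64 and 0.51 in wildtype clone spleens. All 8 spleens were above their pools, with limma's adjusted p of 0.39 in Dll1 clones and 0.859 in wildtype clones. Tap1, the peptide transporter gene that lies beside Psmb9, had -2.25, -1.14, -0.27 and -0.52 in Dll1 clone spleens, with limma's adjusted p of 0.39. The Dll1 clone spleens were thus all below their pool for Tap1, while Psmb9 was above its pool in 3 of the same 4.

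In livers B2m, the light chain of MHC class I, had -0.45, -0.47, -0.33 and -0.28 in wildtype clones, with limma's adjusted p of 0.123. Dhx58, an interferon-induced helicase, had -0.36, -0.22, -0.24 and -0.29 in Dll1 clones, with an adjusted p of 0.193. Both were below the pool in every mouse of the group. With both genotypes averaged in liver, 3 genes of the list were lower at the adjusted threshold (0.172% of all features passed), B2m at -0.30, Tap1 at -0.28 and Dhx58 at -0.20, with limma's adjusted p of 0.0468, 0.0432 and 0.0416. These means were -0.02, 0.04 and 0.001 on the turned reading. At an unadjusted p under 0.05, 1 gene of the list was higher and 6 were lower in that mean, or 30.4% beside 13.2% of all features. Irf2 had -0.32, 0.14 and 1.54 in the 3 Dll1 clone livers measured, so its mean of 0.45 rested on 1 mouse. Ifi30 averaged 0.15 in wildtype clone livers, and Usp18 averaged -0.34 in wildtype clone spleens. Dll1 itself averaged -0.08 in Dll1 clone livers, -0.40 in wildtype clone livers, -0.05 in Dll1 clone spleens and 0.25 in wildtype clone spleens. The zygosity of the Dll1 clones is not given, so the ratio of this gene to the pool does not check the labels.

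Marker lists of other cells were read in the same spleens, where 0 of their genes passed the adjusted threshold. The erythroid markers had a median of -0.734 in Dll1 clone spleens and -0.694 in wildtype clone spleens (8 genes), with 8 and 7 genes below 0. Dividing cell markers had -0.249 and -0.458 (15 genes), B cell markers 0.134 and 0.156 (6 genes), T cell markers 0.260 and 0.117 (6 genes) and myeloid and neutrophil markers -0.211 and 0.063 (15 genes), Dll1 clones first. By mouse, the erythroid median was -1.45, -1.03, -0.11 and -0.18 in Dll1 clone spleens, and the immune subunit median 0.19, 0.17, -0.28 and 0.06 in the same mice. Wildtype clone spleens had erythroid medians of -0.51, -0.96, -0.52 and -0.39, and immune subunit medians of 0.25, 0.09, 0.06 and 0.27. In bulk RNA fewer cells of a type and less RNA per cell cannot be told apart, and the part of these cells in the proteasome ratios was not tested. In livers the hepatocyte marker Fga (-0.50, limma's adjusted p of 0.0255) and the erythroid marker Hba-a1 (-0.56, adjusted p of 0.0253) were lower in wildtype clones. In the mean of both genotypes Fga, Fgb and Hba-a1 were lower, with limma's adjusted p of 0.0115, 0.0183 and 0.00826. On the turned reading Fga had 0.28 and Hba-a1 0.01 in wildtype clone livers. Hepatocyte markers in liver had medians of -0.103 in Dll1 clones and -0.189 in wildtype clones (13 genes), and pancreas acinar markers in spleen 0.114 and 0.099 (5 genes).

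**Figure D3:**
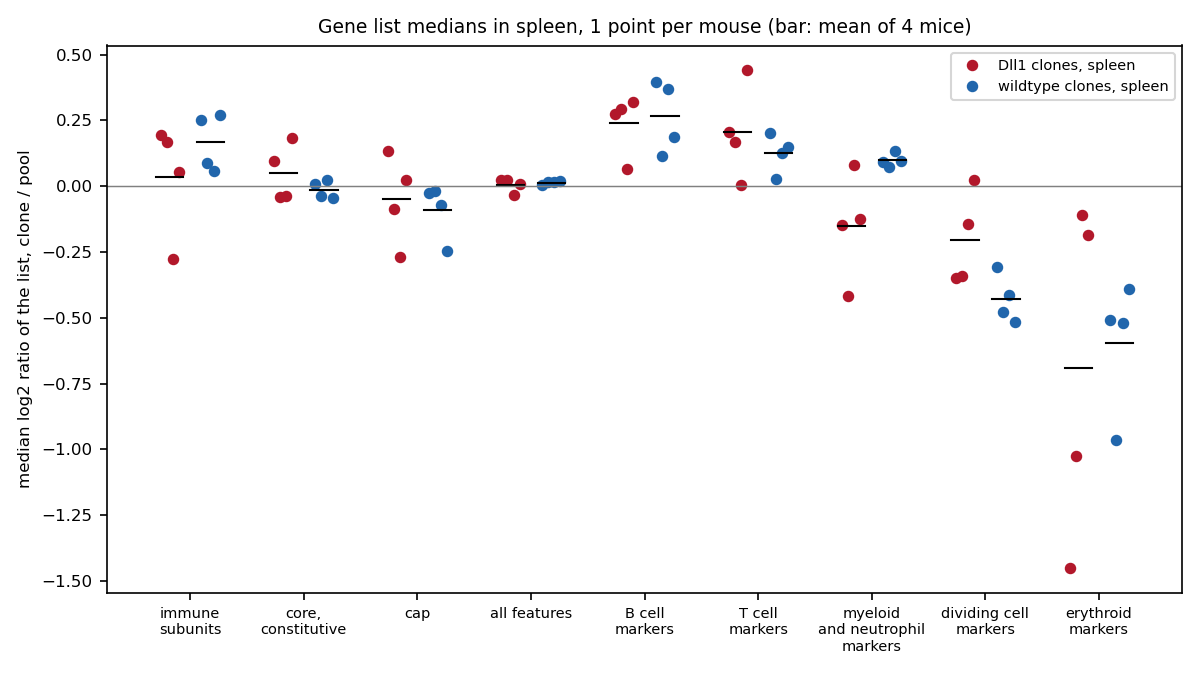
Median log2 ratio of clone over pool over each gene list in spleen, 1 point per mouse, with a bar at the mean of the 4 mice and Dll1 clones left of wildtype clones. The all-feature medians lie near 0, the core and cap medians lie between -0.271 and 0.182, and the erythroid medians lie between -1.45 and -0.11.

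The 2 dye orientations of the same mice disagreed for many proteasome genes. Across the genes measured in at least 3 mice in each orientation, the means with the clone in Cy5 and in Cy3 correlated at -0.387 in Dll1 clone livers (41 genes), -0.643 in wildtype clone livers (41), -0.272 in Dll1 clone spleens (40) and -0.691 in wildtype clone spleens (38). These describe genes on the same arrays, which are not independent. Over all features the values were -0.321, -0.763, -0.319 and -0.426. The signs matched for 14, 10, 16 and 6 proteasome genes in these groups, or 34.1%, 24.4%, 40% and 15.8%, beside 38%, 16.7%, 39.7% and 32.6% of all features.

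Arrays of the same orientation correlated positively within every group. The deposited values do not state whether the swapped arrays were already turned, and the mean over both orientations is clone over pool only if they were. Hba-a1, a globin gene, had -2.04, -1.15, -0.21 and -0.43 with the clone in Cy5 in the 4 Dll1 clone spleens and -2.40, -1.12, -0.26 and -0.88 in Cy3, with the same sign and the same order of mice in both. Read the other way, limma called 2 of 41 proteasome genes in Dll1 clone livers (867 features, 5.13%), 18 of 41 in wildtype clone livers (9288, or 55%), and 1 of 38 in the spleens of each genotype (4.97% of features in Dll1 clones and 1.11% in wildtype clones).

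In wildtype clone spleens Psmb8 was positive in both orientations, at 0.17 with the clone in Cy5 and 0.17 in Cy3, and so was Psme2, at 0.27 and 0.33. Psmb9 was 0.40 in Cy5 and -0.05 in Cy3. In wildtype clone livers Psmb9 was -0.14 and 0.26 and Psme1 -0.12 and 0.28, with the orientations on opposite sides of 0 although their mean was near 0.

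**Figure D4:**
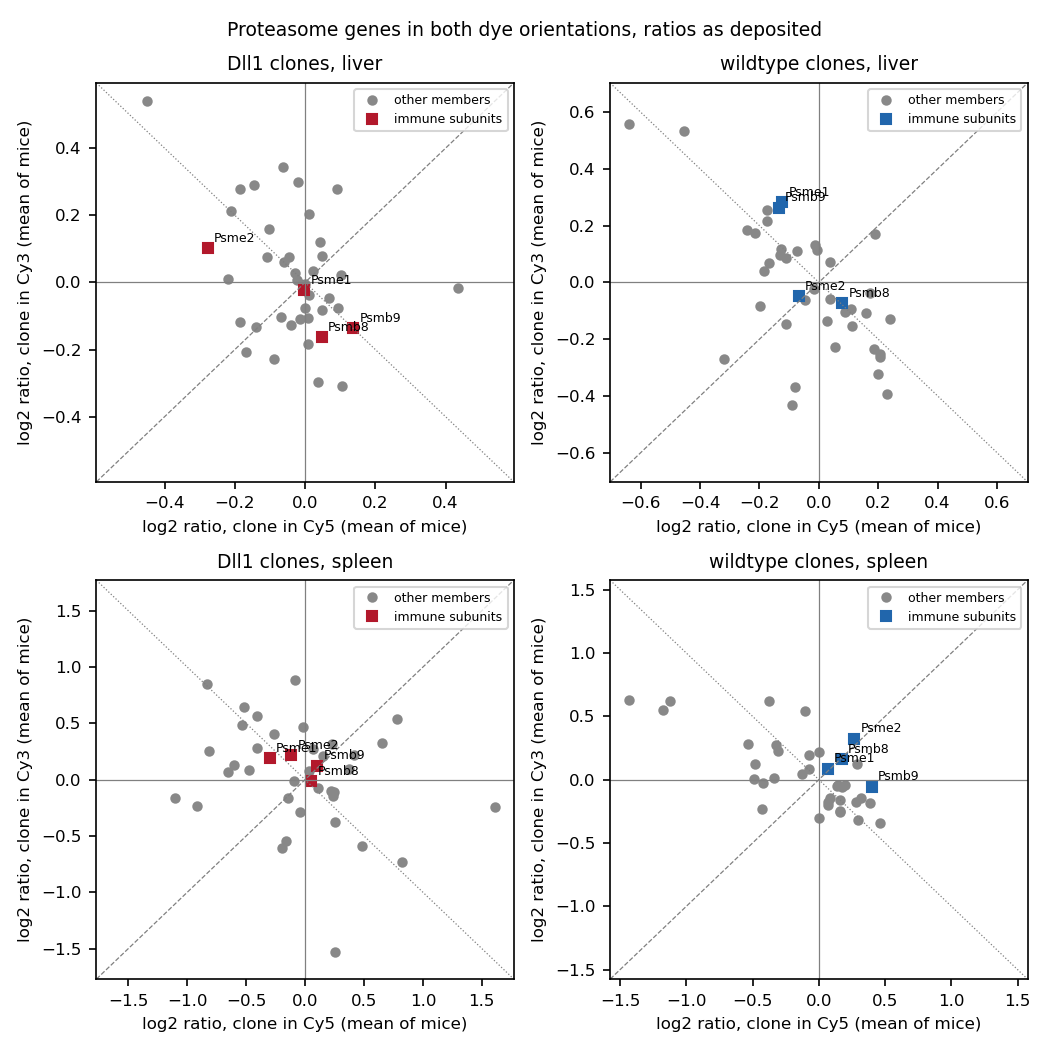
Mean log2 ratio of each proteasome gene with the clone in Cy5 (horizontal) and in Cy3 (vertical), by group, with Dll1 clones left of wildtype clones and the immune subunits as named squares. Points near the dashed line agree in both orientations and points near the dotted line have opposite signs. Most genes have opposite signs in every group.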

How the data were processed

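Liver and spleen RNA of 8 cloned mice was hybridised on 32 two-colour arrays, with a dye swap for each mouse and organ. The deposited values are log2 ratios of clone and pool per array row, with base and scale read from the values. How they were normalized, background-corrected or filtered is not stated in the labels or the table, nor is any scan or slide batch. The median ratio of an array ranged over -0.067 to 0.042 for liver and -0.054 to 0.079 for spleen. Liver arrays lacked 59 to 230 values and spleen arrays 248 to 2859.

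The value table carries row numbers only. Row n was named by the platform annotation of probe n - 11, a shift found from the data: the mean correlation between probes of the same gene was 0.0562 at this shift over 2258 pairs, -0.000694 with no shift and at most 0.0323 at the other shifts of 2001 compared. Gene names rest on it, and all 12771 named probes matched RefSeq. Values over 9 in size, 1183 in all, were set to missing as constants. Each mouse's 2 arrays were averaged where both were measured, then probes of a gene, giving 17060 features, and a feature needed 3 mice in each genotype. limma 3.58.1 (R 4.3.3) was fitted per organ over both genotypes with lmFit and eBayes, with Benjamini-Hochberg adjustment over all features. The 95% intervals are limma's. Liver and spleen were compared within mice. The fit was tested on simulated data. Mice share a number across organs because they are the same animal.

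The proteasome genes, the lists and the tests were chosen with earlier results of these data known. Named in each comparison were the immune subunits, Psmb5, Psmb6 and Psmb7, then up to 2 other genes per direction with the smallest unadjusted p under 0.05, 1 gene per direction from each further list, and Dll1. Genes named outside this rule illustrate a count, a flag or the dye orientations. Promoter windows are RefSeq's on GRCm38.p6, and 1 further motif is not reported here. Alternatives covered array direction, scaling, constants, missing arrays, single probes, the fit and each mouse left out. Protein sequences were not used here.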

Additional observations from a re-analysis of the deposited data

Results flagged for a closer look

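Among 169 groups with values in all 4 mice, from the proteasome genes and the group medians, 10 held a mouse far from the others. Chance alone flags about 1 in 20 such groups. Psmb10 was measured in too few mice to be covered, as were Psmd6, Psmd12 and Psmd14 in spleen groups that lacked a mouse. In Dll1 clone livers the third mouse stood apart at 0.371 for Psmc2, 0.501 for Psmc3ip and 0.156 for Psme2, and its median over all proteasome genes was 0.042 and over the immune subunits 0.014, each above the other mice. The second Dll1 clone liver stood apart at 0.623 for Psmd10. In wildtype clone livers the first mouse stood apart at -1.484 for Psma5 and at 0.272 for Psme3. In wildtype clone spleens the second mouse stood apart at -0.33 for Psmb5 and the fourth at 0.29 for Psme1.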

How the results depend on the processing

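With the Cy3 arrays turned in sign, 26 of the 55 named values changed sign and the counts of proteasome genes past the adjusted threshold moved from 0. They became 2 in Dll1 clone livers, 18 in wildtype clone livers, 12 for the liver mean, 11 for Dll1 minus wildtype in liver, 1 in Dll1 clone spleens, 1 in wildtype clone spleens, 7 for the spleen mean and 4 for liver minus spleen in wildtype clones. The share of all features called was then 42.6% for the liver mean, 41.6% for Dll1 minus wildtype in liver, 13.2% for the spleen mean and 7.44% for liver minus spleen in wildtype clones. Immune subunit medians became 0.058 in Dll1 clone livers, -0.105 in wildtype clone livers, 0.122 for Dll1 minus wildtype in liver and -0.003 in wildtype clone spleens, and the median of all proteasome genes for Dll1 minus wildtype in spleen became -0.082. Signs turned in Dll1 clone livers for Psmb8 (0.105), Psme1 (0.011), Psmb5 (-0.061), Psmb6 (0.094), Psmb7 (-0.093) and Psmb1 (0.070). In wildtype clone livers they turned for Psmb9 (-0.200), Psme1 (-0.203), Psmb6 (0.009), Psmd13 (0.144) and Psma6 (0.018). For Dll1 minus wildtype in liver they turned for Psmb8 (0.029), Psmb9 (0.336), Psme1 (0.214), Psmb6 (0.086), Psmd4 (-0.238) and Psma6 (-0.034). In Dll1 clone spleens they turned for Psmb9 (-0.011), Psme2 (-0.168), Psmb5 (-0.486) and Psmc6 (0.190), and in wildtype clone spleens for Psme1 (-0.010), Psme2 (-0.029) and Psmb7 (-0.266). For Dll1 minus wildtype in spleen they turned for Psmb8 (0.029) and Psmb5 (-0.219). Psmc2 in wildtype clone spleens became -1.031, with an adjusted p of 0.0426. The files do not state which reading is right. The sign of the constants changed with the orientation, as it would on arrays already turned.

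With all 4 groups in 1 fit, 3 proteasome genes passed in Dll1 clone spleens beside 7.37% of all features, Psmd2 (-0.562, adjusted p 0.0196), Psmb7 (0.486, 0.0346) and Psmd10 (0.662, 0.0499). That fit pools the spread of liver, which is smaller, with that of spleen. Scaling arrays to 1 spread turned Psmb8 (-0.005) and Psmb7 (0.009) in wildtype clone livers, and single probes turned Psmb6 in Dll1 minus wildtype (0.018 in liver, 0.079 in spleen). Centring, keeping constants, accepting 1 array and fitting single arrays turned no named value and moved no count. With a replicate block by array pair number, 0 proteasome genes passed for Dll1 minus wildtype in either organ, and with no replicate block 0 passed for liver minus spleen. The pair numbers only name arrays. In the fit of single arrays, with mouse as a random block, the consensus correlation between the arrays of a mouse was -0.325 in liver and 0.00021 in spleen.

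Leaving out each mouse in turn kept the count at 0 in all comparisons. Signs turned in these ranges: Psmb9 -0.048 to 0.036 and Psmb5 -0.076 to 0.062 in Dll1 clone livers, Psmb8 -0.012 to 0.025 and Psmb7 -0.058 to 0.040 in wildtype clone livers, Psme2 -0.111 to 0.009, Psmb5 -0.005 to 0.160 and Psmb6 -0.078 to 0 for Dll1 minus wildtype in liver, Psmb8 -0.075 to 0.134, Psme1 -0.108 to 0.007 and Psme2 -0.076 to 0.186 in Dll1 clone spleens, Psmb5 -0.088 to 0.051 in wildtype clone spleens, and Psmb9 -0.114 to 0.050 and Psmb6 -0.086 to 0.024 for Dll1 minus wildtype in spleen. Spot signal against background was not analysed, and 4 mice per group limit the precision.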
